A study of Colocasia esculenta with 9 samples.

Results

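Of 57034 annotated taro gene models, 54 were expressed in the leaves of 1 cultivar and had no fragment in the libraries of the other 2. The members were chosen on the counts themselves. A gene model belonged to the set when it reached at least 1 CPM in all 3 libraries of a cultivar and had 0 fragments in all 6 libraries of the others. CPM is the number of fragments scaled to a library total of 1000000. Niue had 24 members, Palau 10 had 15 and Sam-07 had 15, against 17127 gene models that reached 1 CPM in all 3 libraries of at least 1 cultivar. Because the counts chose them, the levels and contrasts of the members are given as a description, with no test.

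Taro (Colocasia esculenta) is an aroid crop grown for its corm and leaves and multiplied vegetatively, so that a cultivar is a clone. RNA-seq libraries were made from vegetative leaf of Niue, Palau 10 (Ngerruuch) and Sam-07 (Samasama), 3 libraries a cultivar, with no treatment and no control cultivar. All plants started as tissue-culture plantlets, stood 8 months in potting mix in a growth chamber (27 °C, 85% humidity, 12 h of light a day), and gave RNA from their youngest 2 leaves. The labels do not say whether libraries of a cultivar came from different plants, so the spread between libraries may be technical and p-values measure only that spread.

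A gene can be seen in 1 cultivar only when the others lack the gene, when they keep it but do not transcribe it in leaf, or when their copy differs so much in sequence that its reads no longer align to the assembly. Counts of aligned fragments cannot tell these cases apart, and the sources used here do not name the cultivar behind the assembly. Genes that vary in presence between plant lines are often members of large families, such as those for pathogen recognition. The files give no name, product or sequence for any gene model. The members therefore have no stated function here, no leaf marker could be looked up, and each is given by identifier and position on the scaffolds named in the files.

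Depth set what an absence could show. The libraries held between 5468567 and 18175384 fragments, and the 6 libraries in which a member was absent held 81264181 fragments together for Niue members, 64581940 for Palau 10 members and 70276521 for Sam-07 members. A total of 3 fragments, the limit that a count of 0 allows, correspond to 0.0369, 0.0465 and 0.0427 CPM in those pooled libraries. At the level of its lowest own library, each member would have given between 65.2 and 1095 fragments in the other 6 libraries (median 263). These limits cover counting error only.

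Some libraries stood apart from others of their cultivar. Palau 10 replicate 3 had no fragment for 18 gene models that reached 1 CPM in each of the other 8, and Niue replicate 3 had none for 1, while the other 7 libraries missed none. Sam-07 replicate 2 had no fragment for 9 gene models that were otherwise seen only in Sam-07, as described below. Whether the plant behind Sam-07 replicate 2 is of the same clone as the plants behind replicates 1 and 3 was not tested. The Sam-07 set held 15 gene models with this library and 24 without it. Without both Palau 10 replicate 3 and Sam-07 replicate 2 the rule gave 72 gene models.

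By the rule as stated, Niue had the most members. With 1 CPM asked of 2 of the 3 libraries the counts were 27 in Niue, 23 in Palau 10 and 29 in Sam-07, so this order rests on the rule. The Niue members made up 0.149% of the 16129 gene models at 1 CPM in all 3 Niue libraries. The corresponding shares were 0.0932% of 16096 in Palau 10 and 0.095% of 15784 in Sam-07. The depth of the libraries differed between the cultivars. With every library thinned to the smallest total the counts were 29 for Niue, 15 in Palau 10 and 16 in Sam-07. Together the members took 0.0198% of the fragments in Niue, 0.00999% in Palau 10 and 0.00944% in Sam-07.

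Per kilobase of exon, the median member was below the median expressed gene model of its cultivar. The median of the mean levels was 5.28 CPM per kb over Niue members, against 11.2 CPM per kb over all gene models expressed in Niue. It was 4.41 against 13.4 CPM per kb in Palau 10, and 6.13 against 12.3 CPM per kb in Sam-07. Of the 54 members, 11 lay above the median of their cultivar, 5 in Niue, 2 in Palau 10 and 4 in Sam-07. As mean CPM without length correction, members ranged from 1.20 to 43.2, with a median of 4.51.

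**Figure D1:**
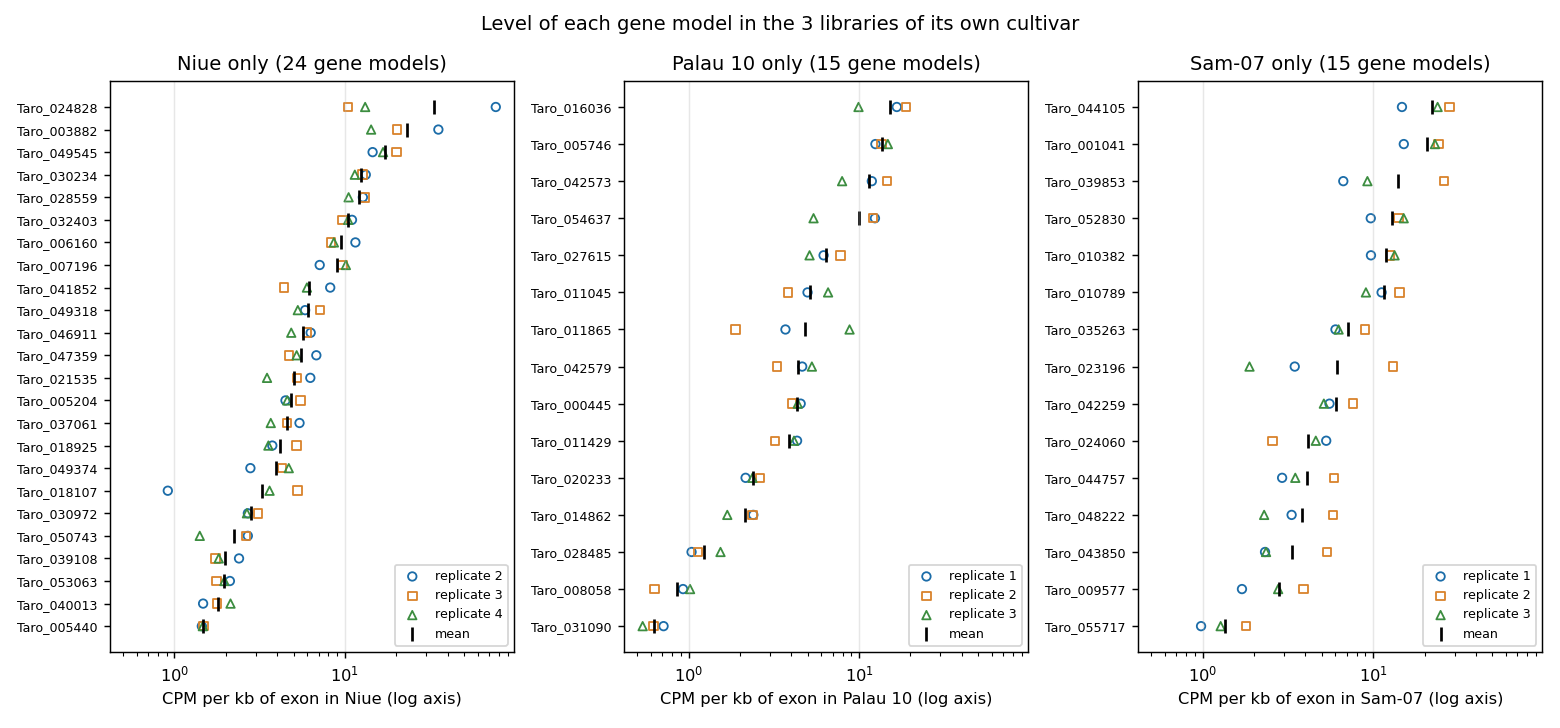
Level of each of the 54 gene models in the libraries of its own cultivar, in CPM per kb of exon on a log axis, with gene models in order of their mean. Open symbols are libraries and black bars are means. The 3 libraries lie close together for most gene models, and the exceptions include Taro_024828 (76.7 CPM per kb in Niue replicate 2) and Taro_018107 (0.915 CPM per kb in Niue replicate 2).

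In Niue, the member with the highest level per length was Taro_024828 (TARO_scaffold_001423, 63238 to 67526, plus strand, 3 exons). It had 99.2, 13.5 and 17.0 CPM in Niue replicates 2, 3 and 4, and a mean of 33.4 ± 37.5 CPM per kb (SD, n = 3). Replicate 2 decides this mean. Without it, the mean of Taro_024828 falls to 15.2 CPM or 11.8 CPM per kb, against 43.2 CPM over the 3 libraries. Taro_003882 (TARO_scaffold_000102, 3170 to 5080, minus strand, 4 exons) had 25.8, 14.8 and 10.4 CPM, a mean of 23.3 ± 10.9 CPM per kb, and was the first gene model on a scaffold with 21. These 2 gene models varied more between Niue libraries than the other 4 of the leading Niue members.

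Those 4 lay within narrow ranges. Taro_049545 (TARO_scaffold_007074, 62220 to 66451, plus strand) had 7.15, 9.86 and 8.23 CPM in Niue replicates 2, 3 and 4. Taro_030234 (TARO_scaffold_002064, 90815 to 94618, minus strand) had 8.27, 7.89 and 7.13 CPM. Taro_028559 (TARO_scaffold_001849, 212354 to 217432, minus strand) had 12.9, 13.2 and 10.6 CPM. None of these differed more than 1.38-fold between its highest and lowest library. Taro_032403 (TARO_scaffold_002392, 54529 to 56262, plus strand) had 5.77, 5.10 and 5.49 CPM, or 10.4 ± 0.647 CPM per kb. Against 3 fragments over the other 6 libraries, the 6 leading Niue members were at least 148-fold to 1171-fold higher in Niue. The upper value is that of Taro_024828, whose bound is 413-fold without replicate 2.

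In Palau 10, the highest level per length belonged to Taro_016036 (TARO_scaffold_000701, 312860 to 316267, minus strand, 4 exons), with 8.82, 9.96 and 5.26 CPM in replicates 1, 2 and 3 and a mean of 15.1 ± 4.63 CPM per kb. Taro_005746 (TARO_scaffold_000165, 19858 to 24500, plus strand, 5 exons) had 10.7, 11.6 and 12.7 CPM. Taro_042573 (TARO_scaffold_004450, 16261 to 20052, minus strand, 9 exons) had 20.6, 25.2 and 13.8 CPM. Replicate 3, the Palau 10 library that stood apart, was the lowest library for 4 of the 6 leading members, and the highest for the other 2, Taro_005746 and Taro_011045. Taro_054637 (TARO_scaffold_011275, 3490 to 6823, plus strand) had the highest CPM of the cultivar, 36.8, 35.7 and 16.1, but at 2971 bases of exon it was also the longest member, and its mean per length was 9.94 ± 3.93 CPM per kb. Taro_027615 (TARO_scaffold_001736, 5402 to 10499, plus strand) had 8.08, 10.2 and 6.68 CPM. Taro_011045 (TARO_scaffold_000409, 306567 to 307182, minus strand) ranked sixth per length because of its 270 bases of exon, with only 1.35, 1.03 and 1.78 CPM. These 6 were at least 29.8-fold to 636-fold higher in Palau 10 than in the other 6 libraries pooled.

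In Sam-07, Taro_044105 (TARO_scaffold_004899, 1457 to 2081, minus strand, 2 exons) led with 7.84, 14.9 and 12.7 CPM in replicates 1, 2 and 3, a mean of 22.2 ± 6.75 CPM per kb. Taro_001041 (TARO_scaffold_000021, 233907 to 234939, minus strand, 4 exons) followed at 7.48, 11.9 and 11.4 CPM. Taro_039853 (TARO_scaffold_003766, 103000 to 105704, plus strand, 2 exons), the shortest member with 216 bases of exon, had 1.44, 5.61 and 1.997 CPM. Its mean of 3.02 CPM falls to 1.72 CPM without replicate 2. Taro_052830 (TARO_scaffold_009233, 9645 to 12020, plus strand) had 5.95, 8.64 and 9.28 CPM, and Taro_010382 (TARO_scaffold_000375, 290711 to 292372, minus strand) had 6.49, 8.42 and 8.93 CPM. Taro_010789 (TARO_scaffold_000396, 35966 to 39294, plus strand) had 12.4, 15.7 and 9.98 CPM. These 6 were at least 70.7-fold to 297-fold higher in Sam-07 than in the other 6 libraries pooled, and the lowest bound, that of Taro_039853, is 40.3-fold without replicate 2.

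Sam-07 members tended to be highest in replicate 2. It was the highest library for 12 of the 15 members (80.0%), and also for 63.8% of all 15784 gene models expressed in Sam-07. Replicate 2 was also the deepest library of the series, and the part of depth in this order was not tested. In Niue, replicate 2 was highest for 13 of 24 members (54.2%), against 44.0% of expressed gene models. In Palau 10 no library led: replicates 1, 2 and 3 were highest for 5, 4 and 6 of the 15 members.

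Members varied across the libraries of their cultivar about as much as expressed gene models in Niue and Sam-07, and less in Palau 10. The coefficient of variation, the SD over the mean of the 3 libraries, had a median of 18.3% in Niue members, 21.4% in Palau 10 members and 30.5% in Sam-07 members. Over all gene models expressed in the same cultivars the medians were 19.8%, 28.1% and 29.7%. For 42 of the 54 members the highest library was less than 2 times the lowest, a share not determined for expressed gene models. The lowest coefficient was that of Taro_005440 in Niue, with 1.44, 1.48 and 1.46 CPM. These values rest on 22, 9 and 8 fragments, where counting error alone exceeds the spread seen. A ratio of 3 or more was found in 5 members, which include Taro_024828 and Taro_039853. The others were Taro_018107 in Niue (1.57, 9.04 and 6.22 CPM in replicates 2, 3 and 4), Taro_011865 in Palau 10 (2.15, 1.10 and 5.12 CPM) and Taro_023196 in Sam-07 (3.24, 12.2 and 1.76 CPM).

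In the fit over all gene models (edgeR's quasi-likelihood test, cultivar against the mean of the other 2, adjusted p under 0.05), all 24 Niue members, all 15 Palau 10 members and all 15 Sam-07 members were called. The share of calls over all 18865 gene models tested was 1.68% in the Niue contrast, 1.93% in that of Palau 10 and 1.28% in that of Sam-07, and 2.72% differed among the 3 cultivars in any way. The members were chosen on this same difference, so nothing is read from these counts.

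Near the level threshold, the Niue members just inside 1 CPM were Taro_053063, with a lowest library of 1.15 CPM, and Taro_005440, with 1.44 CPM. Just below it in Niue lay Taro_023834 (0.914 CPM) and Taro_052444 (0.787 CPM). In Palau 10, Taro_028485 (1.01 CPM) and Taro_011045 (1.03 CPM) were just inside, and Taro_019410 (0.942 CPM) and Taro_008078 (0.740 CPM) just below. In Sam-07, Taro_024060 (1.05 CPM) and Taro_009577 (1.08 CPM) were just inside, and Taro_006381 (0.822 CPM) and Taro_055763 (0.811 CPM) just below. The set thus ends in a continuous range of low levels. Further gene models had 0 fragments in the other cultivars and a lowest library between 0.5 and 1 CPM. There were 7 of these in Niue, 4 in Palau 10 and 4 in Sam-07.

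On the side of absence, 1 fragment kept out 5 gene models in Niue, 6 in Palau 10 and 2 in Sam-07. Another 9, 8 and 3 gene models had 2 or 3 fragments over the other 6 libraries. Some of these had levels per length above the median member of their cultivar. In Niue, Taro_018108 had a mean of 22.3 CPM per kb and Taro_041977 a mean of 7.42 CPM per kb. The latter was below the median expressed gene model in Niue (11.2 CPM per kb). In Palau 10, Taro_030845 had 39.4 CPM per kb, above every member. Taro_055419 had 32.5 CPM per kb, which falls to 5.05 CPM per kb without Palau 10 replicate 3. Taro_018108 had 10.0, 15.6 and 11.5 CPM in Niue and its 1 other fragment in Sam-07 replicate 3, and Taro_041977, with 1 exon, had 9.25, 10.4 and 10.8 CPM in Niue and a fragment in Sam-07 replicate 2. Taro_030845 had 26.7, 8.52 and 23.7 CPM in Palau 10, and Taro_055419 had 18.4, 6.25 and 213.8 CPM there, each with 1 fragment in a Sam-07 library. In Sam-07 the gene models kept out by 1 fragment were lower, at 1.80, 5.67 and 2.23 CPM for Taro_041897 and at 1.80, 2.42 and 1.41 CPM for Taro_023532.

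Each library was then left out of the choice and read afterwards. Over the 9 libraries, 187 candidates were chosen on the other 8 libraries for the cultivar of the library left out. Of these, 177 (94.7%) had a fragment in that library and 162 (86.6%) reached 1 CPM in it. A candidate at 1 CPM in the library left out is a member by the rule, so the 162 are the 54 members, each counted for its 3 libraries, and carry no new information. The remaining 25 candidates were not members, and 15 of them had a fragment in the library left out. Read in libraries of the other cultivars, 20 of 344 candidates (5.81%) had a fragment, 5 fragments at most, and none reached 1 CPM. A candidate without a fragment there is again a member by the rule, so this share carries no new information.

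Absence from a library of the own cultivar was found almost only in Sam-07 replicate 2. Leaving it out gave 24 candidates for Sam-07, of which 15 had a fragment in it, all 15 at 1 CPM or more, and 9 had none. In the other 8 libraries, 15 of the 16 candidates of the own cultivar that were not members had a fragment, the exception being Taro_031487 in Niue replicate 3. In Palau 10 replicate 3 the 4 such candidates, Taro_000888, Taro_004015, Taro_004433 and Taro_024131, had only 1, 3, 2 and 2 fragments. At their lower level in Palau 10 replicates 1 and 2 they would have given 17.4, 15.5, 27.5 and 70.1. At their lower level in Sam-07 replicates 1 and 3, the 9 gene models without a fragment would have given 19.7 to 57.3 fragments each in Sam-07 replicate 2. The highest expected number among the 9 was that of Taro_012478 (TARO_scaffold_000487, 199069 to 200916, 1 exon), with 3.15 and 5.52 CPM in replicates 1 and 3. A pair of them, Taro_010648 and Taro_010649, lie next to each other on TARO_scaffold_000388 from 402743 to 427785. Taro_010648 had 1.89 and 5.87 CPM, and Taro_010649 had 1.08 and 3.52 CPM, in Sam-07 replicates 1 and 3.

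**Figure D2:**
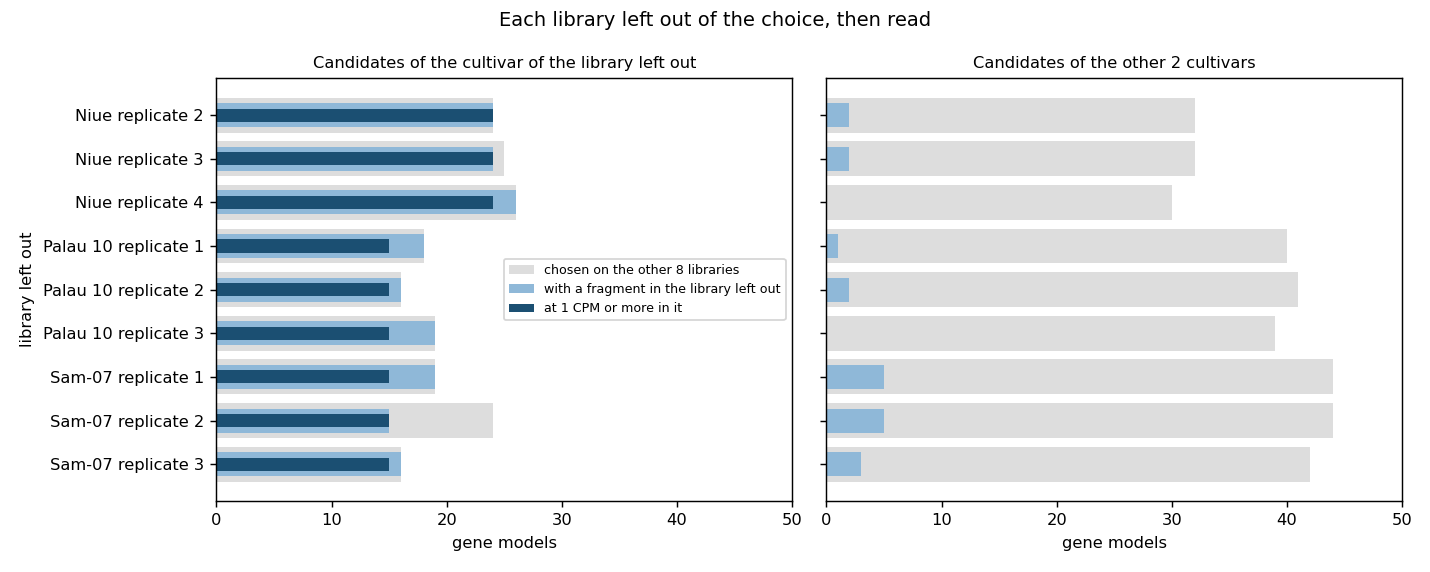
Gene models chosen without the library named on the vertical axis (grey), those with a fragment in that library (light blue) and those at 1 CPM or more in it (dark blue), for its own cultivar (left) and the other 2 cultivars (right). On the left the light blue bars reach the end of the grey ones except for Niue replicate 3 (24 of 25) and Sam-07 replicate 2 (15 of 24), and on the right no dark bar appears. Candidates without a fragment on the right are the members themselves, by the rule.

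By structure, the members were shorter and of fewer exons than expressed gene models. None of the 54 had 1 exon, against 1618 of 17127 expressed gene models (9.45%). From 3 to 5 exons were found in 32 members (59.3%), against 35.2% of expressed gene models, and 6 or more in 16 members (29.6%), against 42.2%. The median was 4 exons in the members of each cultivar, against 5 in expressed gene models. The most exons, 12, were in Taro_049374 of Niue (TARO_scaffold_006991, 61377 to 67449), and 6 members had 2.

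The summed exon length had a median of 850 bases over the members, against 1551 bases over expressed gene models. Under 1000 bases were 35 members (64.8%), against 25.7% of expressed gene models, and at 2000 bases or more were 3 members (5.56%), against 32.8%. Over all 57034 annotated gene models, most of them not expressed by this measure, the medians were 3 exons and 865 bases. Under 1000 bases were 56.8% of all annotated gene models, and 25.6% had 6 or more exons. Among members, the median length was 897 bases in Niue, 914 in Palau 10 and 675 in Sam-07. Length in the genome differed less, with a median of 3419 bases from first to last exon in members and 4959 in expressed gene models. The longest was Taro_030972 of Niue (TARO_scaffold_002163, 141631 to 156239), which spans 14609 bases with 1167 of exon and an intron of 7755. The exon length was a multiple of 3, as for a coding sequence alone, in 35 members (64.8%) and in 52.6% of expressed gene models. Over all 57034 annotated gene models this share was 61.95%, near that of the members.

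The reverse set was 51 gene models at 1 CPM or more in all 6 libraries of 2 cultivars and undetected in the third. This set too was shorter and of fewer exons than expressed gene models. It held 1 gene model of 1 exon (1.96%), 27 of 3 to 5 exons (52.9%) and 26 under 1000 bases (51.0%), with medians of 4 exons and 908 bases. At 2000 bases or more were 8 of these 51 (15.7%), against the 3 of 54 members. Members also had lower levels than expressed gene models at large, with medians of 4.66, 2.79 and 4.78 CPM in Niue, Palau 10 and Sam-07 against 16.8, 20.3 and 19.0 CPM. The part of level in the differences of structure was not tested.

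**Figure D3:**
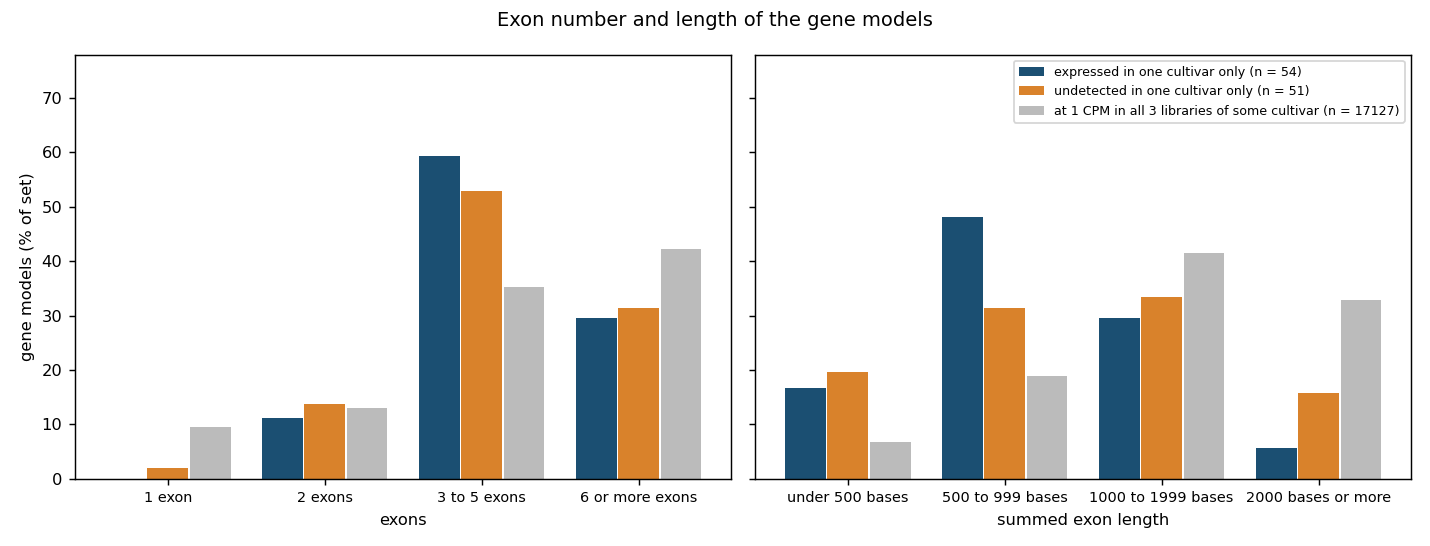
Share of gene models, in percent of each set, by number of exons (left) and summed exon length (right), for the 54 expressed in one cultivar only, the 51 undetected in one cultivar only and the 17127 expressed gene models. Both small sets hold more gene models of 3 to 5 exons and under 1000 bases, and fewer of 2000 bases or more, than the expressed gene models.

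The 54 members lay on 54 different scaffolds, so no scaffold held more than 1. Their scaffolds carried a median of 10.5 gene models, against 12 for expressed gene models and 10 for all annotated gene models. At an end of the annotated order, first or last on the scaffold, were 21 members (38.9%). The share was 26.5% of expressed gene models, 33.7% of all annotated gene models and 31.4% of the reverse set of 51. Members at an end were 9 of 24 in Niue, 4 of 15 in Palau 10 and 8 of 15 in Sam-07. Sam-07 members were on scaffolds with a median of 6 gene models, and Taro_055717 was alone on its own (TARO_scaffold_013564, 17 to 2455). The plus strand carried 24 members.

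The next gene models on either side were expressed less often than those beside expressed gene models at large. The members had 86 such neighbours, none of them a member. Of these, 28 (32.6%, 95% exact binomial interval 22.8% to 43.5%) reached 1 CPM in each of the 3 libraries of the cultivar of the member, against 49.5% of the neighbours of expressed gene models. The interval takes the 86 as independent, although 33 members gave 2 each on the same scaffold, so it is no test against 49.5%. The neighbours expressed were 14 of 39 in Niue, 7 of 26 in Palau 10 and 7 of 21 in Sam-07. No fragment in any library was found for 31 neighbours (36.1%), against 24.7%. Beside the 51 gene models undetected in one cultivar only the shares were close to those of the members, with 29.3% expressed and 37.8% without a fragment.

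Expression around the members was thus often sparse, but not always. No expressed neighbour stood beside 28 members with at least 1 neighbour, and 3 members lay between expressed gene models on both sides. On the scaffolds of 14 members no other gene model was expressed in their cultivar, while 15 members had an expressed gene model within 10 kb. The 14 include Taro_055717, alone on its scaffold, and others on small scaffolds, such as Taro_040013 on a scaffold of 2 gene models. Such counts were not made for expressed gene models at large, so no comparison is drawn from them. The nearest expressed gene model was 554 bases from Taro_006160 of Niue. Neighbours seen only in the cultivar of the member were likewise not counted for expressed gene models at large. Of the 86, 6 had fragments in the cultivar of the member alone, with 1 to 21 fragments each, and the highest was Taro_041851 beside Taro_041852 in Niue. From first to last exon 1 member overlapped a neighbour, Taro_014862 of Palau 10 with Taro_014863 on the opposite strand. They share 65 exon bases, where fragments were not counted, and Taro_014863 had 1 fragment in all.

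The neighbours were not used by the rule, but whether they could be tested depended on their own levels. Of the 86, 34 had enough fragments, and 4 of these differed between the cultivar of the member and the other 2 (edgeR's quasi-likelihood test, adjusted p under 0.05 over all gene models). All 4 were higher in the cultivar of the member. Each passed the filter on low counts, which asks for a minimum level in 3 libraries, only with the libraries of that cultivar. A gene model this low in the other 2 cultivars could be tested only if it was high there. Nothing is therefore read from the shared direction, and the 4 calls and their adjusted p-values are a description only. The 4 were 3 of 18 tested in Niue, where 1.28% of all tested gene models were called higher, and 1 of 8 in Palau 10, where 1.1% were. In Sam-07, where 0.769% were, 0 of 8 neighbours were called by edgeR. DESeq2 called 6 of 18 neighbours in Niue, against 3.65% of all tested gene models, 1 of 8 in Palau 10, against 4.16%, and 3 of 8 in Sam-07, against 3.51%. The counts are small, and without Niue replicate 4 or Sam-07 replicate 3 they fell to 2 of 35 and 2 of 37.

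The neighbour with the largest difference was Taro_018108 (TARO_scaffold_000837, 194633 to 204772, plus strand, 8 exons), 5564 bases from Taro_018107 and on the same strand. It had 311 fragments in Niue and 1 elsewhere, a ratio of pooled levels of 943 (95% counting interval 168 to 37370), with an adjusted p of 0.0013. This is the gene model given above as kept out of the set by 1 fragment. Beside Taro_000445 of Palau 10 lay Taro_000444 (TARO_scaffold_000008, 1559299 to 1562354, plus strand), with 42.5, 43.4 and 79.7 CPM in Palau 10, against 0 to 1.64 CPM in the other 6 libraries. Its log2 fold change was 6.78 (SE 0.56, adjusted p = 0.00077). The groups did not overlap for either gene model. The share of all tested gene models without overlap was not determined, so nothing is read from this.

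The other 2 called neighbours were expressed at lower levels. Taro_006161 (TARO_scaffold_000180, 380182 to 381266, minus strand), beside Taro_006160, had 1.44, 2.79 and 1.65 CPM in Niue, against 0 to 0.471 CPM in Palau 10 and 0 fragments in Sam-07. The ratio of its pooled levels was 14.6 (95% counting interval 7.27 to 32.3), with an adjusted p of 0.045 by edgeR. This call was lost when any library except Palau 10 replicate 3 was left out, with adjusted p up to 0.20. Taro_028560 (TARO_scaffold_001849, 223241 to 234868, plus strand), beside Taro_028559, had 1.51, 2.79 and 1.83 CPM in Niue, against 0 to 0.0673 CPM in Palau 10 and 0.541, 1.49 and 1.29 CPM in Sam-07. Its ratio of pooled levels was 3.37 (95% counting interval 2.21 to 5.16). The fitted log2 fold change of Taro_028560 was 3.50 (SE 0.56, adjusted p = 0.015 by edgeR), which weights Palau 10, with 1 fragment in all, as much as Sam-07. The call was lost without Niue replicate 3 (adjusted p = 0.092) or Niue replicate 4 (0.078). All Niue libraries were above all others for both, and the share of such gene models was again not determined. For Taro_028560 the gap was only 1.509 CPM in Niue replicate 2 (23 fragments) against 1.486 CPM in Sam-07 replicate 2 (27 fragments), which is within counting error.

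Over all 34 tested neighbours the median log2 fold change was 0.02, and 19 were above 0. At an unadjusted p under 0.05 were 13 of the 34. The share of all tested gene models at that level was not determined, so nothing is read from this count. DESeq2 called 10 of the 34. Some large values in the opposite direction were not called by edgeR, such as -6.13 for Taro_037060 (adjusted p = 0.32), 591 bases from Taro_037061. It had 0 to 0.366 CPM in Niue, against 0.055 to 38.2 CPM in the other 6 libraries, whose own spread was wide.

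**Figure D4:**
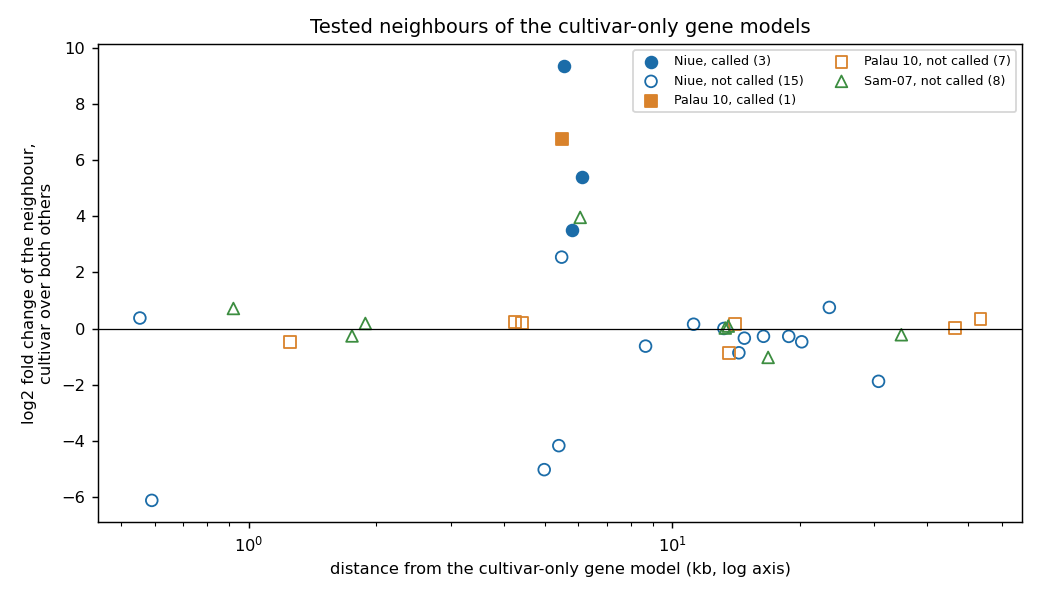
Log2 fold change of the 34 tested neighbours (cultivar of the member over the mean of the other 2) against their distance from the member in kb on a log axis. Filled symbols are the 4 called neighbours, which lie between 5494 and 6142 bases from their member, and the median over all 34 is 0.02.

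Over the whole scaffolds of the members, a comparison added after the data were seen, 15 of 295 other tested gene models (5.08%) were called in the contrast of the cultivar of the member, the 4 next neighbours included. The counts were 10 of 154 in Niue (6.49%, against 1.68% over all gene models tested), 4 of 100 in Palau 10 (4.00%, against 1.93%) and 1 of 41 in Sam-07 (2.44%, against 1.28%). Higher in the cultivar of the member were 13 of the 15, a direction that the filter on low counts can favour. TARO_scaffold_000154, which carries Taro_005440, gave 4 of the 15, and without it 11 of 259 were called. Outside the next neighbours, the highest was Taro_008078 on the scaffold of Taro_008058 in Palau 10, with a fitted log2 fold change of 7.17 (adjusted p = 0.038). Taro_008078 is also the gene model listed above with 0.740 CPM in its lowest Palau 10 library and 0 fragments elsewhere, so this fitted value does not measure the fold. It passed the filter on low counts only with Palau 10 libraries, so nothing is read from its call. Without Niue replicate 4 the count over these scaffolds fell to 8 of 306.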

How the data were processed

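Per the file headers, the authors deposited raw fragment counts per gene model from featureCounts 1.4.6-p4, which counted read pairs over exons. Strand was not set, so RNA of the opposite strand counts for a gene model. Fragments that map to several places or overlap several gene models were not counted. The other deposited column, the summed exon length in bases, is the same in each file. The submitters' processing notes list Subread 1.4.6, STAR (given as 3.5.0a), Trimmomatic 0.33 and bcl2fastq 1.8.4. The protocols in the labels describe a CTAB extraction of 4 g leaf, RNA dried over 40 h, and stranded TruSeq libraries. The sources used here do not give the genome build.

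The members and lists were chosen with earlier results of these data known. CPM used file totals. Fits used R 4.3.3 and edgeR 4.0.16 (glmQLFit, glmQLFTest, two-sided, TMM, filterByExpr with minimum count 10 and total 15), all 9 libraries in 1 fit, cultivar as the only term, each cultivar against the mean of the other 2, with Benjamini-Hochberg adjustment over 18865 gene models. SEs come from the log2 fold change and its F statistic. On simulated data with 200 changed gene models, 4-fold changes were recovered in 70% (Niue), 49% (Palau 10) and 62% (Sam-07) of cases. By a chi-square test, counts differed beyond sampling noise in each pair of libraries of a cultivar, so none was treated as a repeat deposit. This does not show that they are independent. Expressed means 1 CPM or more in all 3 libraries of a cultivar. Neighbours are the next gene models by first exon on each side. Named are the 6 members a cultivar with the highest CPM per kb, called neighbours, and members at the thresholds or of extreme structure. Other gene models, such as those singled out for variation or absence from Sam-07 replicate 2, were named after their values were seen. Alternatives were other normalizations and filters, DESeq2 1.42.0, a block, other thresholds, thinning, and each library left out.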

Additional observations from a re-analysis of the deposited data

How the results depend on the processing

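The number of members followed its thresholds. At 2, 5 or 10 CPM it was 34, 19 or 7 in all, with 9 and 4 for Niue at 5 and 10 CPM, 7, 5 and 3 for Palau 10 and 9, 5 and 0 for Sam-07. With up to 3 fragments allowed elsewhere it was 87, with 38 for Niue and 29 for Palau 10, and with 2 of 3 libraries at 1 CPM it was 27 in Niue, 23 in Palau 10 and 29 in Sam-07, which places Sam-07 above Niue. Thinned to the smallest library, all 9 libraries gave 60, of which 46 were among the 54, and TMM-scaled totals gave 52, of which 51 were. Leaving out a library loosens the rule, so that no member can be lost, and gave 15 to 24 for Sam-07, the 24 being without replicate 2 (and also without both that library and Palau 10 replicate 3, a setting chosen after seeing the data). The median exon number was 4 under each alternative tried for it, the median exon length 830 to 893 bases, and the share of expressed neighbours 24.4% to 41.9%.

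Calls over all gene models were 316, 365 and 241 for Niue, Palau 10 and Sam-07 and 513 among the cultivars. They were 688, 785, 663 and 1133 with DESeq2, 84, 111, 70 and 127 under a filter of 10 CPM in 3 libraries, and 166 to 414, 182 to 433, 128 to 368 and 273 to 662 with a library left out. With the replicate block they were 1, 37, 13 and 25. The labels share replicate numbers, but same-numbered libraries correlated between -0.486 and 0.43 in their deviations from the cultivar means, so the numbers were not taken to pair libraries. Called neighbours were 4, against 10 by DESeq2, 2 with the 10 CPM filter, 1 when blocked and 2 to 4 with a library left out. Calls on the members' scaffolds, a count added after seeing the data, were 29, 5, 1 and 8 to 16 in the same order. The causes were not tested. Depth limits absence to the levels given in the report.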

Other observations

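Some gene models were seen in 1 library alone. At 1 CPM or more in a library and without a fragment in the other 8 were 4 gene models. They were Taro_052445 in Niue replicate 4 (6 fragments), Taro_052033 in Palau 10 replicate 3 (27 fragments), and Taro_030729 and Taro_036803 in Sam-07 replicate 1 (14 and 29 fragments). Sam-07 replicate 2, the deepest library, had none.

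Among the candidates kept out by a few fragments, 4 of the 28 found for Niue without Sam-07 replicate 2 had 1 or 2 fragments in that library. Taro_025731, for example, had 2 fragments there and 6.10, 6.90 and 5.67 CPM in Niue replicates 2, 3 and 4. Candidates of Palau 10 had fragments in Sam-07 replicate 1 in 4 of 19 cases, with 1 to 3 fragments each. In both counts the candidates without a fragment are members by the rule.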
